A study of Mus musculus with 4 samples.

Results

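The Dlk1-Dio3 imprinted domain of mouse chromosome 12 was examined in fibroblasts on the way to induced pluripotent stem cells (iPSCs). Its members were all probes whose file name was Dlk1, Meg3, Rtl1, Rian, Mirg or Dio3, together with every probe placed on chromosome 12 between 110690000 and 111000000 in the coordinates of the files (mm9). The rule took 91 of the 55681 probes on the array, which carried 25 of its 34821 distinct gene, transcript or interval names. The domain was selected on the levels of its probes on these same 4 arrays, because they moved together, so the levels and differences given here are a description with no test.

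Gene expression was measured once in each of 4 groups with single-channel Agilent arrays, so there was 1 array per group and no replicate. All cells were mouse embryonic fibroblasts (MEFs) from E13.5 embryos that carried an EGFP reporter under the Oct4 promoter and enhancer, and the study's methods state that several male embryos were pooled. Every group received retroviruses for Oct4, Sox2 and Klf4 (OSK), and in the OSKA groups AKT-MER, myristoylated AKT fused to a modified estrogen receptor, was added. AKT-MER becomes active when 4-hydroxytamoxifen (4OHT) binds. From 3 days postinfection (dpi) cells were given 4OHT (+ 4OHT) or ethanol vehicle (− 4OHT), and RNA was taken at 8 dpi. The groups were thus OSK − 4OHT, OSK + 4OHT, OSKA − 4OHT and OSKA + 4OHT, and AKT was activated only in the last of these. The free-text description of the OSKA + 4OHT sample contradicts its title, and the title was used. The arrays hold whole cultures, in which fewer cells of a type and less RNA per cell cannot be told apart.

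Genomic imprinting means that a gene is transcribed from the chromosome of one parent and silent on the other. In the Dlk1-Dio3 domain the protein-coding genes Dlk1, Rtl1 and Dio3 are transcribed from the paternal chromosome, whereas Meg3, Rian and Mirg are noncoding RNAs from the maternal one. The noncoding genes run in the same direction as one long row of transcripts, and they carry many microRNAs and small nucleolar RNAs. Methylation of a control region between Dlk1 and Meg3 separates the parental states, and loss of Meg3 expression through this methylation is a known fault of some mouse iPSC lines. The arrays read RNA of both chromosomes together, so parental origin was not measured, and "maternal" and "paternal" below are names of gene classes.

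The probes that carry the result are shown first, as 60-base sequences read from the deposited scanner files, with the whole probe in lower case. The Dlk1 probe and 2 Meg3 probes were chosen because they stand for the opposite imprints, and all lie on the forward strand of chromosome 12 in mm9, at chr12:110698502-110698561 for Dlk1 and at chr12:110799558-110799617 and chr12:110809678-110809737 for Meg3.
Dlk1 probe A_55_P2105371: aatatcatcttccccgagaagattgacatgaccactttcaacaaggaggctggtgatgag
Meg3 probe A_52_P196568: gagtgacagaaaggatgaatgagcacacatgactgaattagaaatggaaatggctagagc
Meg3 probe A_51_P455997: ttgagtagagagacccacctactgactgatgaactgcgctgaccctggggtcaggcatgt
The printed Meg3 probes lie 10.06 kb apart, and the longest run of letters that they share was 7.

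A further 3 forward-strand probes mark the noncoding row beyond Meg3. The first lies at chr12:110830889-110830948 in 6430411K18Rik, the transcript antisense to Rtl1. The second lies at chr12:110834811-110834870 in 1110006E14Rik, named in the files from a cDNA clone. The last lies at chr12:110865304-110865363 and has no gene name in the files, being a probe for a long intergenic noncoding RNA (lincRNA) that was designed for the forward strand between Rtl1 and Mirg.
6430411K18Rik probe A_55_P1979753: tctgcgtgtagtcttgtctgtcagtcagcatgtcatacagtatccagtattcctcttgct
1110006E14Rik probe A_55_P2419296: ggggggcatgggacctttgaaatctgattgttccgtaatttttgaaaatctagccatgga
lincRNA probe A_30_P01027400: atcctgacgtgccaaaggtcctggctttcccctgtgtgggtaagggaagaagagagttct

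The 3 Mirg probes are shown because one of them ran against all the others of the named noncoding genes. They lie at chr12:110968992-110969051, chr12:110979653-110979712 and chr12:110987569-110987628, again on the forward strand.
Mirg probe A_55_P2048867: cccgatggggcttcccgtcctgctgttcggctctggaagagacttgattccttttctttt
Mirg probe A_55_P2336173: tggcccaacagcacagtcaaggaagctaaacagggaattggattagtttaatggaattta
Mirg probe A_66_P121059: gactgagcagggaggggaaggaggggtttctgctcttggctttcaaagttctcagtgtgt
No pair of them shares a run of more than 6 letters. No other probe of the array shares 20 letters in a row with A_55_P2048867, the discordant one.

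Of the 91 probes, 14 carried the name of a gene or transcript and 77 were lincRNA probes named only by a chromosomal interval, 46 for the forward and 31 for the reverse strand. Several lincRNA probes shared an interval, as the 77 carried 17 interval names between them, so they are not separate transcripts. No probe was named Rian or carried its RefSeq accession, so Rian was not analysed here by name. In the RefSeq gene order Rian lies between the Rtl1 antisense transcript and Mirg, where 39 of the probes lay. The 90 probes inside the interval spanned 289.1 kb, and the Dio3 probe lay a further 531.2 kb beyond the last of them. No domain probe was spotted more than once, while 18 pairs of probes overlapped on opposite strands and 2 on the same strand.

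A level is the log2 processed intensity minus the array's 75th percentile over non-control spots, and is compared only within a probe. A difference is given where the scanner software marked the probe as well above background on both arrays. For such a difference, the errors that the scanner software attached to the spots combined to a median of 0.2053 (log2). It covers the measurement and not the spread between cultures. On this basis 45 of the 91 probes were measured on all 4 arrays, 18 on some and 28 on none. The arrays had 52.4 to 55.4% of spots above background, no saturated spot and a 75th percentile between 377 and 462 intensity units. The share above background was highest in OSKA − 4OHT and the 75th percentile in OSK − 4OHT. The median of the negative controls ran from 3.28 in OSKA − 4OHT to 4.51 in OSK − 4OHT.

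The culture was checked against marker lists. All 8 fibroblast markers, such as Col1a1 and Vim, were above background on all arrays, with a summed intensity between 1454 and 1538 times the 75th percentile. Of 8 pluripotency markers, Pou5f1 (Oct4), Nanog, Dppa5a, Lin28a, Utf1 and Tdgf1 were above background on all arrays and Zfp42 and Esrrb on none, with a summed intensity between 6.64 and 7.21 times the 75th percentile. Pou5f1 was also introduced with the retroviruses and is no check of the cells here, although that sum includes it.

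By the levels defined above, most domain probes measured on all arrays were highest in OSKA − 4OHT and lowest in OSK − 4OHT. Those of paternal Dlk1 and maternal Meg3 were among them. Among the 45 probes measured on all arrays, OSKA − 4OHT was the highest array for 38, where 20.0% of all 26901 such probes had it highest. OSK − 4OHT was the lowest for 34, against 27.5% of all probes. Both held together for 31 of the 45, against 8.56% of all probes. The median domain probe stood 0.80 higher (log2) in OSKA − 4OHT than in OSK − 4OHT, or 1.75-fold, while the median of all probes was -0.015. With 4OHT in both cultures the corresponding difference was 0.24. The median difference without 4OHT was smaller with spike-in scaling and with normexp background correction, as given below. The place of OSK − 4OHT as the lowest array also depended on the scaling. With the scaling used for the levels, 37 of 47 comparable domain probes were higher in OSK + 4OHT than in OSK − 4OHT. With spike-in scaling 23 were, and a Dlk1 probe and a Meg3 probe were lower in OSK + 4OHT.

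Dlk1 encodes a transmembrane protein of the Notch ligand family that holds back fat cell differentiation and is known as Pref-1. Its probe A_55_P2105371 read 1.67 in OSK − 4OHT, 1.97 in OSK + 4OHT, 2.46 in OSKA − 4OHT and 1.79 in OSKA + 4OHT. The brighter probe A_66_P117477 read 4.74, 5.13, 5.66 and 4.99 on the same arrays. On both probes OSKA − 4OHT was the highest array and OSK − 4OHT the lowest. Without 4OHT, AKT-MER cells exceeded OSK cells by 0.78 and 0.92 (log2), or 1.72-fold and 1.89-fold, each with a software error of 0.20. With 4OHT they differed by -0.18 and -0.13, within that error.

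Rtl1, a gene derived from a retrotransposon and needed in the placenta, has 1 probe on the reverse strand. All 4 arrays left it short of the background criterion, so no difference can be given. Dio3 encodes the deiodinase that inactivates thyroid hormone. Its level was -3.62, -4.0, -3.15 and -3.81 in the order given for Dlk1, close to the background and with software errors between 0.26 and 0.33. Dio3 was also highest in OSKA − 4OHT, but its lowest array was OSK + 4OHT. Dio3 exceeded the OSK − 4OHT level by 0.47 (log2) in OSKA − 4OHT, less than 2 of its software errors.

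Meg3 is a long noncoding RNA studied for its restraint of growth. Its probe A_51_P455997 read 4.77 in OSK − 4OHT, 5.36 in OSK + 4OHT, 5.88 in OSKA − 4OHT and 5.43 in OSKA + 4OHT. Probe A_55_P2033407 read 2.04, 2.16, 3.06 and 2.52, and probe A_52_P196568 read -1.23, -0.20, 0.53 and 0.01. In all 3 the rank of the arrays was the same at both ends, with OSK − 4OHT lowest and OSKA − 4OHT highest. The AKT-MER difference without 4OHT was 1.10, 1.02 and 1.77 (log2), or 2.15-fold, 2.03-fold and 3.40-fold. The probes thus gave the same direction, and of the 3 sizes only that of A_52_P196568 departed from the others by more than the software error of 0.20 to 0.21. With 4OHT, the difference fell to 0.07, 0.36 and 0.22.

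The transcript antisense to Rtl1, 6430411K18Rik, and the neighbouring 1110006E14Rik had the same highest and lowest arrays as Meg3. On the strand antisense to Rtl1 lie microRNAs that pair perfectly with the Rtl1 message. The probe of 6430411K18Rik read -2.64, -1.84, -1.09 and -2.12 and differed by 1.56 (log2) between the − 4OHT arrays, or 2.94-fold. The probes of 1110006E14Rik differed by 0.97 and 0.75. The Rtl1 probe and these probes differ in sequence, so the level of one was not set against another.

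Mirg, the noncoding RNA at the far end of the row, hosts a cluster of microRNAs. Its brightest probe over the 4 arrays, A_66_P121059, read 1.75 in OSK − 4OHT, 2.12 in OSK + 4OHT, 2.62 in OSKA − 4OHT and 2.45 in OSKA + 4OHT, and A_55_P2336173 read 0.95, 1.48, 2.08 and 1.94. Between the − 4OHT arrays these differed by 0.86 and 1.13 (log2). The third, A_55_P2048867, read 3.18, 1.80, 1.58 and 0.57, so it was highest in OSK − 4OHT and lowest in OSKA + 4OHT. It stood at 0.329-fold of OSK − 4OHT in OSKA − 4OHT. Of the 50 domain probes comparable there, 47 were higher, beside 47.5% of all probes, and the other two that were lower changed by -0.04 and -0.06. A forward lincRNA probe ending 52 bases before it, A_30_P01023997, was above background on no array. The gene whose levels over the 4 arrays were nearest to this probe's was Syt10, at a distance of 0.217 (log2, Euclidean over 4 mean-centred levels), whereas the Mirg probe A_66_P121059 stood at rank 13557 of the genes measured. Why this probe departs from the others was not tested.

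**Figure D1:**
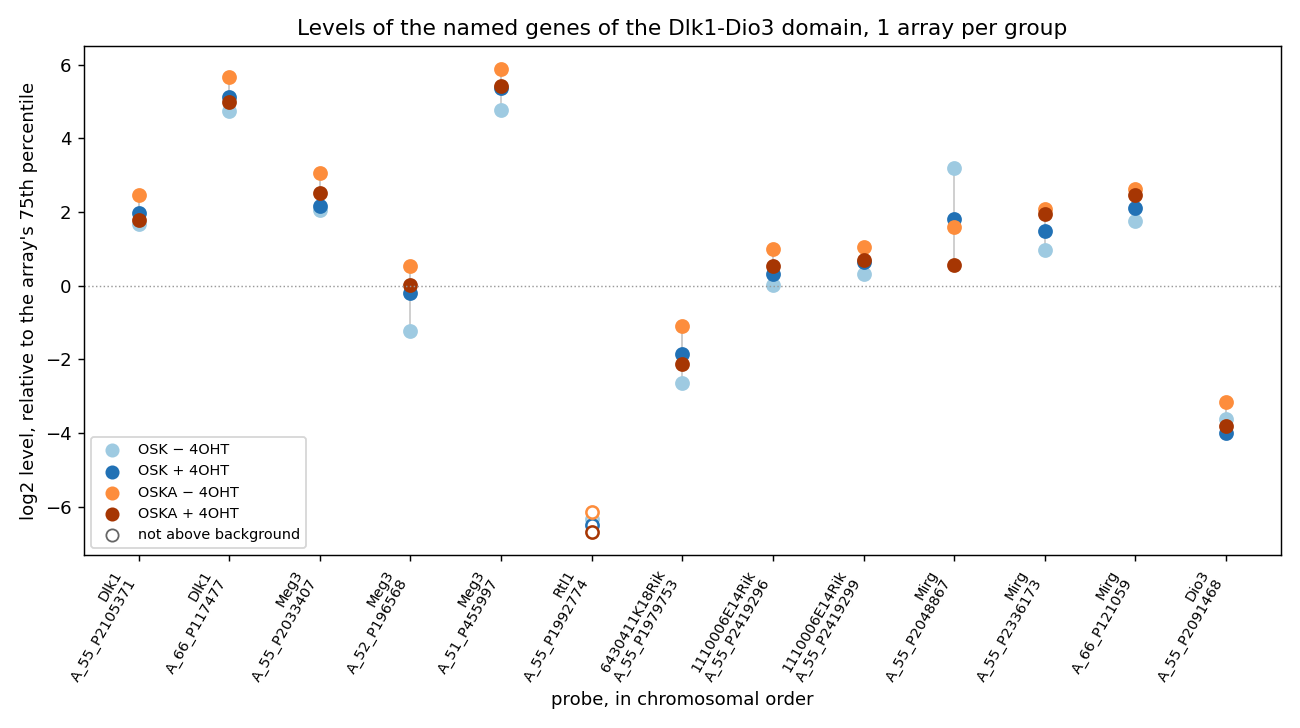
Levels (log2, relative to the array's 75th percentile) of the 13 probes of named genes on the 4 arrays, in chromosomal order, filled where well above background and open where not. OSKA − 4OHT (orange) is uppermost on all but the Mirg probe A_55_P2048867 among the 12 measured probes, whereas Rtl1 is open on all arrays.

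The probes with interval names extended the pattern between the named genes. Between Rtl1 and Mirg, 16 forward-strand lincRNA probes could be compared between the − 4OHT arrays, and all 16 were higher in OSKA − 4OHT, by 0.33 to 1.70 (log2) with a median of 0.89. The largest was the printed probe A_30_P01027400, which read 0.59 in OSK − 4OHT, 1.79 in OSK + 4OHT, 2.30 in OSKA − 4OHT and 2.08 in OSKA + 4OHT. On the reverse strand of the same stretch, 4 of 5 comparable probes were higher. One reverse probe, A_30_P01031197, read -1.71, -1.11, -0.68 and -1.27, highest in OSKA − 4OHT and lowest in OSK − 4OHT like the printed forward probe but with OSK + 4OHT above OSKA + 4OHT, while A_30_P01025258 changed by -0.04. In the Mirg stretch 12 of 13 forward lincRNA probes were higher (median 0.74). Probes of opposite strands overlap in the domain, as counted above, and whether signal of one strand reached probes of the other was not tested.

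Between Dlk1 and Meg3, which holds the control region, 4 of 13 probes, all lincRNA probes, were above background on any array and none on all 4. Of all 16181 lincRNA probes of the array, 6499 were above background on any array and 4285 on all 4. This stretch was thus mostly below detection, as were most lincRNA probes of the array. In all, 38 lincRNA probes of the domain were comparable between the − 4OHT arrays, of which 36 were higher in OSKA − 4OHT (median 0.76), beside 55.6% of all lincRNA probes. The median over the 4789 lincRNA probes of the whole array was 0.04.

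**Figure D2:**
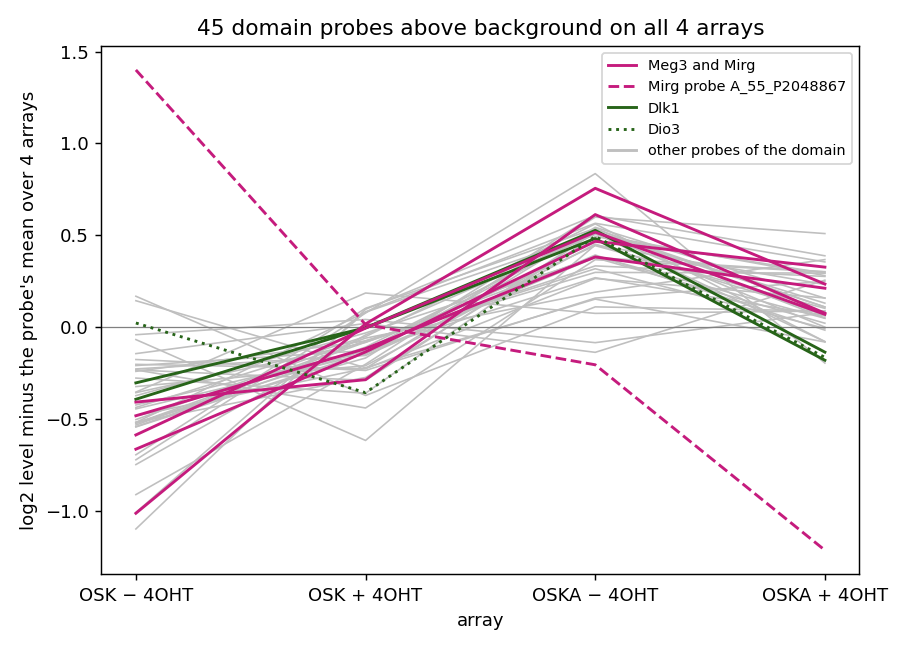
Log2 level minus the probe's own mean for each of the 45 domain probes measured on all 4 arrays, drawn as lines over the arrays. Most lines rise to OSKA − 4OHT and fall after it, for Dlk1 (green) and for Meg3 and Mirg (pink) alike, and the Mirg probe A_55_P2048867 (dashed) descends from left to right.

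The AKT-MER comparison without 4OHT had the highest count of 2-fold changes among the 4 comparisons. At least 2-fold higher levels were found for 16 of 50 comparable domain probes, beside 1.15% of 28032 probes in all, and 1 was at least 2-fold lower, beside 0.903%. The one that was lower was the Mirg probe A_55_P2048867. The count of higher probes fell to 5 with spike-in scaling and to 5 with normexp background correction and quantile normalization, where the count over all probes fell from 322 to 65 and 49. Of 5 comparable Meg3 and Mirg probes other than that one, 4 were at least 2-fold higher. Of the 3 comparable paternal probes, none was, although all were higher. The median difference was 1.06 over the 6 maternal probes and 0.78 over the 3 paternal ones. With so few probes of shared genes these medians were not compared by a test. A further 12 probes were above background on only one of the − 4OHT arrays, which gives a bound. Of these 11 were above background in OSKA − 4OHT, beside 69.8% of all probes that only one of these arrays detected, with bounds from at least 1.04-fold to at least 1.61-fold higher, among them A_55_P2137932, a probe for a cDNA clone between Rtl1 and Mirg (at least 1.37-fold). LincRNA probe A_30_P01032261 was above background in OSK − 4OHT alone and at least 2.59-fold lower in OSKA − 4OHT.

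The 4OHT comparison in OSKA cells, in which AKT is activated, went the other way. The domain median was -0.32 (log2) and 42 of 50 comparable probes were lower in OSKA + 4OHT, beside 55.6% of all probes. Relative to the median of all probes, the domain median was -0.28 with median scaling. It was -0.15 with normexp background correction and quantile normalization. Dlk1 fell by 0.66 on both probes, to 0.632-fold. Meg3 fell by 0.45 on A_51_P455997, 0.54 on A_55_P2033407 and 0.52 on A_52_P196568, and Mirg A_66_P121059 by 0.17. The paternal median was -0.66 and the maternal median -0.48. Only 2 probes were at least 2-fold lower, 6430411K18Rik at -1.03 and the Mirg probe A_55_P2048867 at -1.01, beside 0.879% of all probes, and none was 2-fold higher, beside 1.78%. Fewer were 2-fold lower with median scaling, and none with quantile normalization or normexp. All 11 probes that gave a bound were lower in OSKA + 4OHT, by at least 1.08-fold to at least 1.73-fold, and of all probes that only one of these arrays detected 32.2% were detected in OSKA + 4OHT. The OSKA − 4OHT array enters both this comparison and the one before, so its high levels raise the first and lower the second, and they are not separate evidence.

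The 4OHT comparison in OSK cells, which carry no AKT-MER, sets the ligand against the vehicle. The domain median was 0.30 and 37 of 47 comparable probes were higher with 4OHT, beside 49.1% of all probes. Meg3 differed by 0.58 on A_51_P455997, 0.12 on A_55_P2033407 and 1.03 on A_52_P196568. Dlk1 differed by 0.30 and 0.39, Mirg A_66_P121059 by 0.37 and Dio3 by -0.38. At least 2-fold higher were 3 probes, beside 0.656%, and 1 was lower, beside 0.324%. Of the 7 probes that gave a bound, 3 were higher and 4 lower with 4OHT, among them A_30_P01032261 at least 2.02-fold lower. Of all probes that only one of these arrays detected, 41.3% were detected in OSK + 4OHT. The direction of this comparison depended on the scaling. When arrays were scaled to the bright spike-in control probes, the median of all probes shifted by -0.31 and the domain median became -0.0095, while relative to the median of all probes it kept its value of 0.30. Spike-in scaling shifted the AKT-MER comparison without 4OHT by -0.44, leaving a domain median of 0.36, and that with 4OHT by -0.13.

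With 4OHT in both cultures, OSKA exceeded OSK by a median of 0.24, and 39 of 47 comparable domain probes were higher, beside 42.8% of all probes. None was at least 2-fold higher, beside 1.73%, and the Mirg probe A_55_P2048867 was the 1 lower, beside 1.09%. Of the 6 probes that gave a bound here, 3 were higher and 3 lower in OSKA, among them lincRNA probe A_30_P01027471 at least 2.43-fold lower. Of all probes that only one of the + 4OHT arrays detected, 61.5% were detected in OSKA + 4OHT. The median was 0.27 over the 6 maternal probes and -0.13 over the 3 paternal ones, of which Dlk1 read -0.18 and -0.13 and Dio3 0.19.

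**Figure D3:**
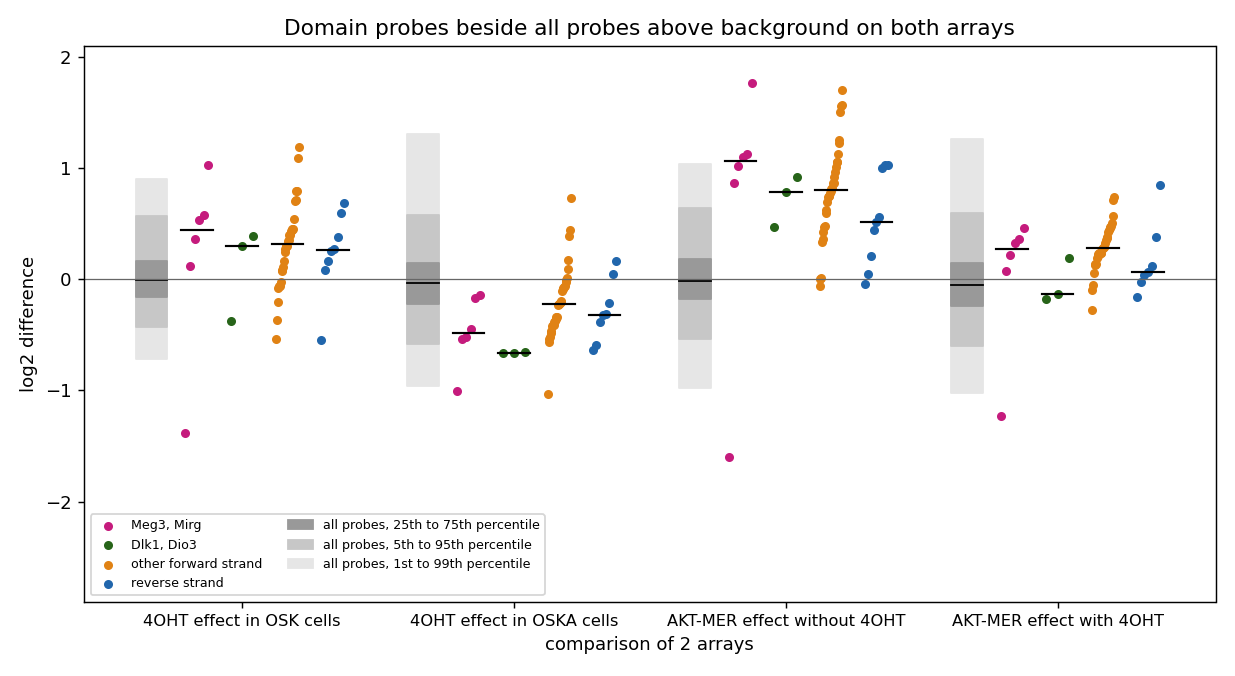
Log2 differences of domain probes in each of the 4 comparisons (points, with the group median as a line), beside the percentile ranges of all probes (grey bars). In the AKT-MER comparison without 4OHT most points lie above 0, whereas the median of all probes lies at -0.015.

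The probes nearest to the interval were read in the same way. The 3 lincRNA probes next below it and the 3 next above it gave no difference between the − 4OHT arrays, since they were not above background on both. In flanks of 1500 kb on either side, 66 probes were comparable between the − 4OHT arrays, with a median of -0.04, and none was 2-fold higher or lower, beside 1.15% and 0.903% of all probes. Of 16 flanking genes that were measured, none changed 2-fold in any comparison. Below the domain, Yy1 and Wars differed by 0.05 and 0.08 between the − 4OHT arrays, with -0.33 on the other Wars probe. Evl differed there by 0.35, Slc25a29 by 0.34 and Wdr25 by -0.04. Begain, the nearest named gene below Dlk1, had its arrays in the order of Dlk1 at both ends. It read 0.49 in OSK − 4OHT, 1.13 in OSK + 4OHT, 1.36 in OSKA − 4OHT and 0.88 in OSKA + 4OHT, with an AKT-MER difference of 0.87 without 4OHT. With 4OHT in OSKA cells, Begain (-0.48) and Zfp839 (-0.46) led the list of flanking genes, which does not hold Dio3os. Begain encodes a protein of neuronal synapses and is imprinted in some mammals. At the other end, the 2 probes of Dio3os, the antisense partner of Dio3, disagreed, at 0.45 for the one above background on all arrays and -0.19 for the other, which the files place at the same position. The former differed by -0.93 with 4OHT in OSKA cells, where the other gave no difference.

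**Figure D4:**
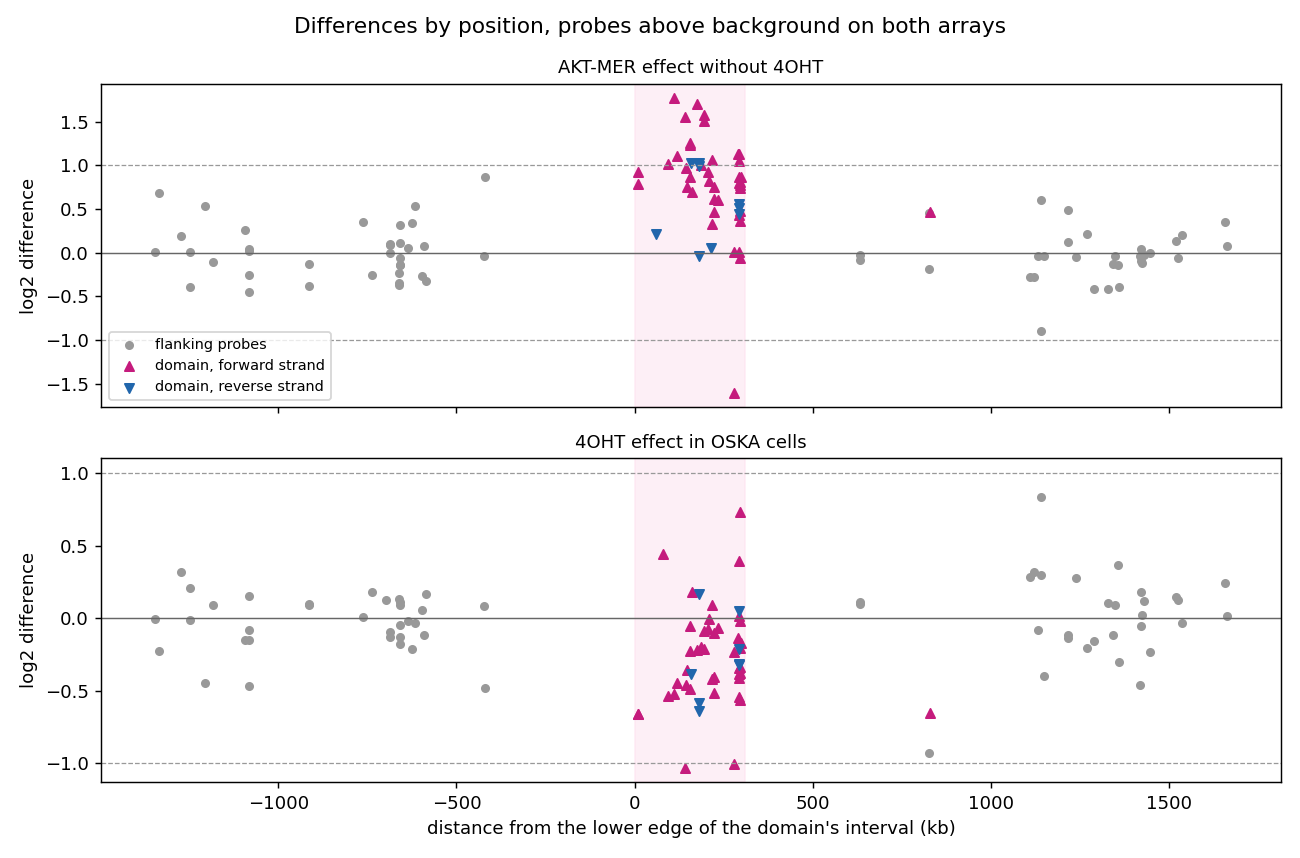
Log2 differences along the chromosome, in kb from the lower edge of the interval (shaded), for the AKT-MER comparison without 4OHT (upper) and the 4OHT comparison in OSKA cells (lower). Domain probes (triangles, up for the forward and down for the reverse strand) mostly lie above 0 in the upper plot and below 0 in the lower, and flanking probes (grey) scatter around 0.

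The regulators of DNA methylation and imprints were taken from a list of 22 genes. All 22 listed genes were measured on all arrays, and none changed 2-fold in any comparison, beside 0.927% higher and 0.892% lower over all genes in the AKT-MER comparison without 4OHT. Their median there was -0.09, and the difference farthest from 0 by a brightest probe, named after its values were seen, was 0.70 for Aff3, with 0.33 and -0.12 on its other probes. The leading genes with 4OHT in OSKA cells were Tet1 and Dnmt3l (0.59), a cofactor of the methyltransferases. Of the enzymes that oxidise methylated cytosine, Tet1 differed by 0.79 with 4OHT in OSKA cells by its brightest probe and by 0.38 and 0.44 by its others. Tet2 differed by 0.44, with 0.46 and -0.64 on its other probes. The methyltransferases Dnmt3a and Dnmt3b differed by 0.31 and -0.11 in that comparison, with -0.06 and -0.28 on the other Dnmt3b probes. The probes of Zfp57, which protects imprints from demethylation, disagreed at 0.08 and -0.61, and its partner Trim28 differed by -0.10.

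Genes of the Notch pathway, to which Dlk1 is linked, were mostly lower in OSKA − 4OHT than in OSK − 4OHT. By their brightest probes 12 of 16 comparable genes were lower, beside 54.8% of all genes, and 4 of them at least 2-fold, beside 0.892% of all genes, with a median of -0.42. They were the ligand Jag2 (-1.45), the target Hes5 (-1.44), the feedback inhibitor Nrarp (-1.17) and the receptor Notch4 (-1.07). The probes of Rbpj, the transcription factor of the pathway, differed from each other, at 0.18 for the brightest and 1.21 for the other, which was also 1.38 higher with 4OHT in OSK cells. With 4OHT in OSKA cells, Hes5 was 1.18 higher, and no other gene of the list changed 2-fold there, beside 2.33% higher over all genes. Of 12 thyroid hormone genes beside Dio3, 10 were measured on all arrays and none of these changed 2-fold, beside the shares of all genes given for the imprint regulators. Dio2, which activates the hormone, differed by -0.34 between the − 4OHT arrays, by 0.88 between the + 4OHT arrays and by -0.95 with 4OHT in OSK cells. With 4OHT in OSKA cells the leading genes were Hr, a corepressor of the hormone receptor (0.54), and Dio2 (0.27).

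Markers of other cell types were read beside these differences. All 4 epithelial markers were measured, and 2 were at least 2-fold lower in OSKA − 4OHT than in OSK − 4OHT, Krt8 (-1.23, and -1.33 on its other probe) and Cdh1 (-1.05), beside 0.892% of all genes. Epcam differed by -0.10 and Krt18 by 0.27. Krt18 was 1.06 higher between the + 4OHT arrays, beside 2.29% of all genes at least 2-fold higher, and 0.86 higher with 4OHT in OSKA cells, and the summed intensity of the 4 was 3.59, 2.84, 2.03 and 2.89 times the 75th percentile in the order given for Dlk1. It was thus highest where most measured domain probes were lowest. Of 4 endothelial markers 3 were measured, with differences between the − 4OHT arrays of -0.83 for Tek, -0.36 for Pecam1 and 0.30 for Kdr (0.76 on its other probe) and sums between 8.02 and 11.9, and Cdh5 was above background on no array. Of 4 neural markers 3 were measured on all arrays, Map2 at 0.96 (0.91 on its other comparable probe), Tubb3 at -0.18 and Nes at -0.0069, with sums between 6.18 and 6.36. The sum of the 3 chondrocyte markers was highest in OSK − 4OHT and between 13.3 and 14.2 on the other arrays, and between the + 4OHT arrays Sox9 differed by 1.72 and Col2a1 by -0.13. With 4OHT in OSKA cells Sox9 was 1.06 higher. Of 4 blood markers 3 were measured on all arrays, namely Ptprc, Cd68 and Adgre1, and they were lowest in OSK − 4OHT, with a summed intensity of 46.6 against 60.3 to 68.5 on the other arrays. The highest sum was in OSK + 4OHT, unlike the domain. Of 5 muscle markers 4 were above background on no array and Des on 1. The adipocyte markers Pparg and Fabp4 were higher in OSKA − 4OHT by 0.24 and 0.39, whereas Adipoq was above background only in OSK − 4OHT and Plin1 on no array. Whether these cell types had a part in the domain's differences was not tested.

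The genes whose levels over the 4 arrays were nearest to each member, by Euclidean distance of mean-centred levels, lay outside the domain. Nearest to Dlk1 were Bfsp2 (0.060), P2ry12 (0.074) and Nwd1 (0.090), with Begain at rank 51 and Meg3 at rank 100 of 14266 genes. Nearest to Meg3 were Hoatz (0.078), Hpn (0.106) and Gm21944 (0.115), with Mirg at rank 47 and Dlk1 at rank 69. Nearest to Mirg were 3110099E03Rik (0.030), Plod2 (0.080) and Shtn1 (0.089), and nearest to Dio3 were Nek1 (0.121) and Esm1 (0.145). The distances printed for these nearest genes are smaller than the median software error of a difference (0.2053), so their order is uncertain. Some of them were dim, as 3110099E03Rik read -4.01 to -3.15 and Bfsp2 -4.10 to -3.12. The ranks describe likeness over 4 arrays.

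The promoter window of the first RefSeq start of Meg3 is printed because Meg3 is the first named noncoding gene of the row. It is the window of GRCm38.p6, a different build from the files, at chr12:109540746-109541045 on the forward strand, with 250 bases before the start and 50 after it. Capitals mark the letters searched for on both strands, namely TGACGTCA (the cAMP response element), TATAAA (the TATA element), CCAAT (the CAAT element) and TGCCGC (the ZFP57 motif). The letters of the GC box, GGGCGG, were searched for and not found.
Meg3 promoter: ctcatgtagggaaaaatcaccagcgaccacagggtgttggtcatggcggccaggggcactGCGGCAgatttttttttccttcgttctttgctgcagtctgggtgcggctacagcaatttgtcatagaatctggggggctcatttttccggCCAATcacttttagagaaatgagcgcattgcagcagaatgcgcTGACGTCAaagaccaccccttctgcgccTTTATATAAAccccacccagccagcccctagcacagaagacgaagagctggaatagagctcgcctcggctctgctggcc
The window holds 1 TGACGTCA starting 57 bases before the start, a letter run found in 1.79% of the 32817 promoter windows of the same length. It holds 2 matches of TATAAA, which overlap and which 13.6% of windows contain, 1 CCAAT (37.4%) and 1 TGCCGC on the reverse strand (11.6%). The RefSeq table has a second Meg3 window, which holds none of these letter runs. The windows of Dlk1, Rian and Mirg hold neither TGACGTCA nor TATAAA, the Dio3 window holds 1 TATAAA, and a match is a description of letters only.

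Between Dlk1 and Dio3 the RefSeq table (GRCm38.p6) lists 58 microRNA hairpins, 54 on the forward strand and 4 on the reverse, with 113 mature names. The arrays do not measure mature microRNAs. The Rtl1 antisense group is shown because it lies on the strand of the Rtl1 antisense transcript described above, with the seed (bases 2 to 8) in capitals.
miR-431-5p: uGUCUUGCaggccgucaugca
miR-433-3p: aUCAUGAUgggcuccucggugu
miR-127-3p: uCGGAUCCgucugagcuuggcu
miR-434-3p: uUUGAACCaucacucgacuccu
miR-136-5p: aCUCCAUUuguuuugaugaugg
The RefSeq span of 6430411K18Rik holds 1 of them, miR-433. In that group no seed was shared. Over all mature sequences of the domain there were 104 distinct seeds, of which 9 were shared by more than 1 name. Examples are miR-379-3p with miR-411-3p, both from hairpins between Rian and Mirg, and miR-494-5p with miR-410-5p, the latter inside Mirg, where the RefSeq spans place 10 of the forward hairpins.
miR-379-3p: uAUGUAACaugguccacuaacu
miR-411-3p: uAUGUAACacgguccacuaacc
miR-494-5p: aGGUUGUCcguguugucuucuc
miR-410-5p: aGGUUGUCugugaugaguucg
The levels of these microRNAs in the 4 groups were not analysed here.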

How the data were processed

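RNA was profiled on 4 single-channel Agilent arrays of 62976 spots on 1 slide. The authors labelled 100 ng of RNA with Cy3 and processed the scans with Feature Extraction 10.7.3.1, and the deposited intensity is corrected for background and spatial trend on a linear scale, with surrogates for dim spots and no normalization between arrays. The deposited series matrix holds the same intensity, rounded. Levels were computed as log2 intensity minus the array's 75th percentile over unmarked, non-control spots (Python 3.11.15, numpy 2.4.6, pandas 2.3.3), after 104 to 155 marked spots were left out. Probes were averaged over spots. A difference needs both arrays well above background, and otherwise a bound is given against the lowest such signal. RefSeq accessions (GRCm38.p6) named 27503 of 55681 probes, and coordinates are those of the files (mm9). With 1 array per group no test was possible and none was made; 4 differences were taken, 2 for 4OHT and 2 for AKT-MER. Position on the slide and group cannot be told apart. The number of arrays limits the precision. Each gene is given by its brightest probe over the 4 arrays, with other probes beside it for genes named from the lists. Listed genes were named where changed 2-fold, otherwise the leading pair in the 4OHT effect in OSKA cells, with Tet1, Tet2, Dnmt3a, Dnmt3b, Zfp57 and Trim28 in any case. Yy1, Wars, Evl, Slc25a29, Wdr25, Aff3 and Rbpj were named outside this rule. The members and lists were chosen with earlier results of these data known. Alternatives were median and quantile scaling, normexp (offset 50, limma 3.58.1 in R 4.3.3), the matrix values, other filters, spike-in scaling and a 1.5-fold threshold. The calculation was tested on simulated data. One probe sequence and one gene among the nearest profiles are not reported here.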

Additional observations from a re-analysis of the deposited data

Results flagged for a closer look

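The difference of the 4OHT effects, that in OSKA cells minus that in OSK cells, is given here for results whose 2 effects had opposite signs. The difference was not tested, since each effect rests on 2 arrays. On the log2 scale it was -0.96 for the Dlk1 probe A_55_P2105371 and -1.05 for A_66_P117477. For Meg3 it was -0.66 on A_55_P2033407, -1.55 on A_52_P196568 and -1.03 on A_51_P455997. For 6430411K18Rik, the transcript antisense to Rtl1, it was -1.83. The 2 probes of 1110006E14Rik gave -0.76 and -0.70. The Mirg probes A_55_P2336173 and A_66_P121059 gave -0.67 and -0.54, and the median over domain probes measured on all arrays was -0.54. The results were listed for opposite signs, and in each the level with 4OHT was higher in OSK cells and lower in OSKA cells. These directions were found for 31 of the 45 domain probes measured on all arrays, and for 7542 of 26901 such probes on the array. With spike-in scaling the OSK effect of all the listed probes fell. It turned negative for Meg3 A_55_P2033407 (-0.19), Dlk1 A_55_P2105371 (-0.00947) and 1110006E14Rik A_55_P2419296 (-0.0108). The Mirg probe A_55_P2048867 and the Dio3 probe are absent from the listed results, as both were lower with 4OHT in both cultures. For Dio3 the effects were -0.38 in OSK cells and -0.66 in OSKA cells.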

How the results depend on the processing

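No paired analysis was possible because each group had 1 array, and for the same reason no array could be left out. Of the 9 alternatives, 8 were planned, and leaving out the Mirg probe A_55_P2048867 was chosen after seeing the data. Of the summary values recomputed, 138 moved by less than their limits, 31 moved further and 2 changed sign, counting a change of sign only where the reported value exceeded the software error. Among values of single probes 304, 30 and 2 did so. Under spike-in scaling the 4OHT effect in OSK cells had a domain median of -0.00947, maternal 0.14 and paternal -0.00947, with 0 probes 2-fold higher, with Meg3 A_55_P2033407 at -0.19, Dlk1 A_55_P2105371 at -0.00947 and 1110006E14Rik A_55_P2419296 at -0.0108, all above 0 otherwise. The AKT-MER effect without 4OHT then had a median of 0.36, maternal 0.62 and paternal 0.34, with 5 probes 2-fold higher, and the difference of 4OHT effects was -0.22. With normexp that median was 0.49 with 5 probes higher, 1 was higher for 4OHT in OSK cells and 0 lower in OSKA cells. Probes at least 2-fold lower with 4OHT in OSKA cells numbered 1 with median scaling and 0 with quantile normalization. With no filter on dim probes the counts of higher and lower were 5 and 3 for 4OHT in OSK cells, 1 and 6 in OSKA cells, 26 and 3 for AKT-MER without 4OHT and 2 and 3 with it, and the paternal median for 4OHT in OSK cells was 0.0766. At 1.5-fold, 9 probes were higher for 4OHT in OSK cells, 1 higher and 7 lower in OSKA cells, 34 higher for AKT-MER without 4OHT and 3 with it. Without A_55_P2048867 the lower counts were 0 for 4OHT in OSK cells, 1 in OSKA cells, and 0 for AKT-MER without and with 4OHT. Spike-in scaling shifts all probes together and the 1.5-fold limit and missing filter admit more probes by construction, while for normexp the cause was not tested. Dim signal limits Rtl1, Dio3 and the stretch between Dlk1 and Meg3.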
